A study of Mus musculus with 4 samples.

Results

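Bipolar cell genes were examined in 4 RNA-seq libraries of mouse retina sorted for EGFP driven by the Hes1 promoter. The 10 genes were taken by symbol from the gene tables, where each has exactly 1 line, out of 21828 genes analyzed. They comprise the transcription factors Vsx1, Lhx4 and Prdm8, the ON signaling genes Grm6, Trpm1, Gng13 and Pcp2, the kinase Prkca, and the calcium-binding proteins Cabp5 and Scgn. All retinas came from FVB/N mice with a transgene in which a Hes1 promoter fragment drives destabilized EGFP, without any particular treatment. At postnatal day (P) 1 and at P4, EGFP-positive cells (pHes1_EPCs) and EGFP-negative cells (pHes1_ENCs) were separated with a cell sorter, and each fraction at each age gave 1 library. Both fractions carry the transgene, and how many mice were pooled for a sort is not given in the sources used here. Since the promoter is active in progenitors as well as in Müller glia, the sort does not separate these. pHes1_ENCs are the cells sorted as EGFP-negative, whatever their type, and bipolar cells are not shown to lie only among them.

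Bipolar cells carry signals from photoreceptors to the inner retina and are, with rods and Müller glia, among the last cells that retinal progenitors make. Rod bipolar cells and ON cone bipolar cells respond to glutamate through the receptor mGluR6, encoded by Grm6, whose G protein closes the cation channel TRPM1 in the dark. Vsx1, Lhx4 and Prdm8 act earlier, in the differentiation and maintenance of bipolar subtypes, but Lhx4 is also known from cone photoreceptors and Prdm8 from amacrine cells. Thus these genes are not exclusive to bipolar cells.

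The unit of all levels is FPKM, fragments scaled to transcript length and to the number of mapped fragments, and each value comes with the 95% interval of the Cufflinks program. FPKM is corrected for transcript length, so levels can be compared between genes. A difference is given on the scale of log2(FPKM + 1), and a gene is counted as higher or lower when this difference is past 1, that is 2-fold. There were no replicates, so no test was possible and no p-value is given. Ratios are followed by a range formed from the Cufflinks bounds of both libraries, which covers counting error only and not the variation between mice or sorts. In bulk RNA, fewer cells of a type and less RNA per cell cannot be told apart.

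The upstream sequences of 5 members are shown. Lhx4, Prdm8 and Pcp2 were lower in pHes1_EPCs at both ages, Cabp5 has 2 matches to TAATCC, and Trpm1 differed in the opposite direction. Each window holds the 250 bases before the 5′ end of the gene line in NCBI37/mm9, on the strand of the gene, 5′ to 3′. Capitals mark TAATCC, the letters bound by CRX and OTX2, the E-box CAGATG, and TCATGTG or TCACGTG, the M-box letters recognized by MITF, on either strand. The genome is that of C57BL/6J and not of FVB/N.
Lhx4, chr1:157589158-157589407, minus strand: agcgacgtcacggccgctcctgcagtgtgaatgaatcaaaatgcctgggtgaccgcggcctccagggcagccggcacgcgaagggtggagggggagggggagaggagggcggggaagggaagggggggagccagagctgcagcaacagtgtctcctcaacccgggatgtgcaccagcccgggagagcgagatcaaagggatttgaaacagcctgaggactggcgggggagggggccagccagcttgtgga
Prdm8, chr5:98609638-98609887, plus strand: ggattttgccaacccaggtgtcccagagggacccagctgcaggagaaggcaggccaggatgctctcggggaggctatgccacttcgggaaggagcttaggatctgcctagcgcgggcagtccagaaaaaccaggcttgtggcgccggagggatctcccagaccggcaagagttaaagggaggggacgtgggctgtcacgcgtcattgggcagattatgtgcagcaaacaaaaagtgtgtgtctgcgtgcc
Pcp2, chr8:3625546-3625795, minus strand: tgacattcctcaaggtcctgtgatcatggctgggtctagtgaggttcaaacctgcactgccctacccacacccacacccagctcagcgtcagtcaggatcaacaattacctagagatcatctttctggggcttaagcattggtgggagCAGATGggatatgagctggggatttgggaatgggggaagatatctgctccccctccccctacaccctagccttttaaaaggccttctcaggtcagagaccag
Cabp5, chr7:13983254-13983503, plus strand: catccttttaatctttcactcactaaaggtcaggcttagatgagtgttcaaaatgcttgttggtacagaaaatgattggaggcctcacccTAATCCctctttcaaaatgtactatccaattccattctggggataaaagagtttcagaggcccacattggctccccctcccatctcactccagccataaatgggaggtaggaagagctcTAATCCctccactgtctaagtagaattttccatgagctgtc
Trpm1, chr7:71298471-71298720, plus strand: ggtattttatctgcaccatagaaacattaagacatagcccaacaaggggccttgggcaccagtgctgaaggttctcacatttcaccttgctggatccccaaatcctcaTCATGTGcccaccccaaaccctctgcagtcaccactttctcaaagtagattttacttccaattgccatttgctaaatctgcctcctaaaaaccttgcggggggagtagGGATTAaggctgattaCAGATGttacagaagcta
TAATCC had 2 matches in the window of Cabp5, at -160 to -155 and at -41 to -36 from the gene start. It was also found in that of Trpm1, on the minus strand at -34 to -29. Thus 2 of the 10 members held it, beside 6.14% of 20856 windows of the same length over all genes. The M-box letters occurred in Trpm1 alone among the 10 members, at -142 to -136, beside 6.13% of all windows. CAGATG was found in Pcp2, at -102 to -97, and in Trpm1, at -18 to -13, beside 12.2% of all windows. The homeodomain letters TAATTA were in 0 of the 10 member windows and in 4.23% of all windows. The windows of Lhx4 and Prdm8 held none of the letters searched, and their GC content was 66.0% and 59.6%, beside 46.0% for Trpm1 and 44.0% for Cabp5. Such matches describe letters and not binding.

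Among the transcription factors that are members, Lhx4 and Prdm8 had the highest levels. They also differed most between the fractions on the scale of log2(FPKM + 1). By ratio, Vsx1 was close to Prdm8 at P4, at 3.29 against 3.38. Lhx4, a LIM homeodomain factor, lies on the minus strand of chromosome 1 at 157548824 to 157589157. In pHes1_ENCs, Lhx4 stood at an FPKM of 14.9 on P1 and 20.4 on P4, against 0.879 and 4.67 in pHes1_EPCs. It was therefore high in both pHes1_ENC libraries, low in pHes1_EPCs at P1 and intermediate in pHes1_EPCs at P4. The ratio of pHes1_ENCs to pHes1_EPCs was 16.9 at P1 (range 10.6 to 26.4), but 4.37 at P4 (3.19 to 5.71). The log2 differences, pHes1_EPCs minus pHes1_ENCs, were -3.08 and -1.92.

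Prdm8, a PR-domain transcription repressor on the plus strand of chromosome 5 (98609888 to 98616467), was the most abundant member. Prdm8 had an FPKM of 33.1 (P1) and 21.9 (P4) in pHes1_ENCs, compared with 1.97 (P1) and 6.46 (P4) in pHes1_EPCs. Unlike that of Lhx4, its level in pHes1_ENCs was lower at P4 than at P1, whereas that in pHes1_EPCs was higher. pHes1_ENCs exceeded pHes1_EPCs by a ratio of 16.8 (range 12.9 to 20.7) at P1 and of 3.38 (2.77 to 3.98) at P4. As log2 differences these were -3.52 and -1.62. An annotated gene on the opposite strand shares 684 of the 3119 exon bases of Prdm8. The library protocol describes no marking of strand, so that reads of the partner cannot be told apart from those of Prdm8.

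Vsx1, a paired-like homeodomain factor of cone bipolar cells, was near 0 at P1 and low at P4. It lies on the minus strand of chromosome 2 at 150506440 to 150514873. In P1 pHes1_ENCs Vsx1 was listed at an FPKM of 0 and in P1 pHes1_EPCs at 0.00176, whereas at P4 the levels were 0.642 in pHes1_ENCs and 0.195 in pHes1_EPCs. It was thus present above the P1 level in both fractions at P4, with more in pHes1_ENCs. At P4 the ratio of pHes1_ENCs to pHes1_EPCs was 3.29 (range 1.69 to 7.55), but the log2 difference was only -0.46, because adding 1 to the FPKM weighs heavily at such low levels.

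**Figure D1:**
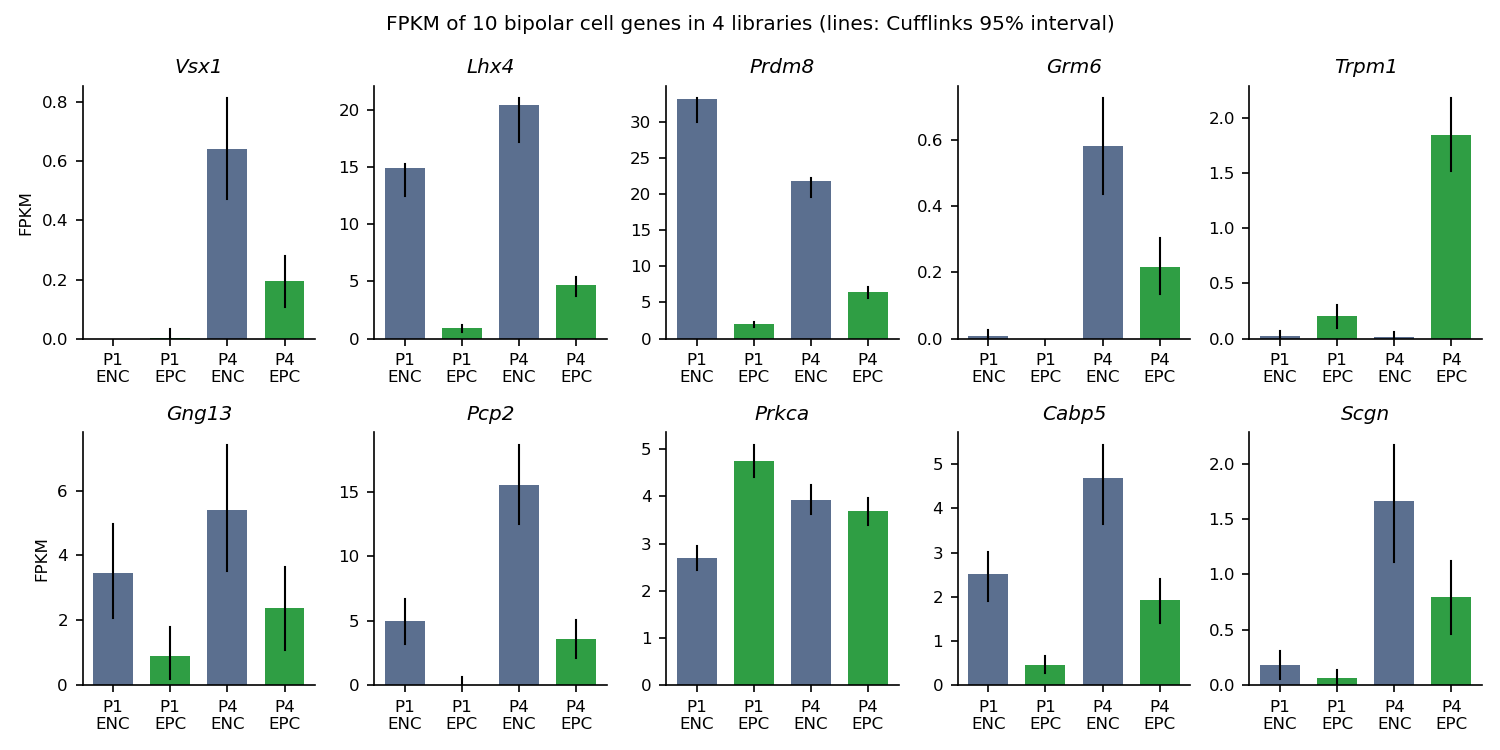
FPKM of the 10 bipolar cell genes, 1 panel for each gene with its own linear axis, in the 4 libraries (grey-blue, pHes1_ENC; green, pHes1_EPC). Bars are the deposited FPKM and black lines the Cufflinks 95% interval, which is not centred on the FPKM. Lhx4 is tallest in both pHes1_ENC libraries, while Trpm1 is tallest in P4 pHes1_EPCs, at 1.85.

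Among the ON signaling genes, Grm6 was late and low, Pcp2 and Gng13 were already present at P1, and Trpm1 went the other way. Grm6, the glutamate receptor of ON bipolar dendrites, lies on the plus strand of chromosome 11 at 50664187 to 50679710. At P1, pHes1_ENCs contained Grm6 at an FPKM of 0.00881 and pHes1_EPCs at 0, while the P4 levels were 0.580 for pHes1_ENCs and 0.214 for pHes1_EPCs. At P4 the level in pHes1_ENCs was 2.71 times that in pHes1_EPCs (range 1.44 to 5.44), with a log2 difference of -0.38. Grm6 and Vsx1 thus had similar levels, both near 0 at P1 and below 1 at P4 in both fractions. An annotated transcript on the opposite strand shares 599 of the 5421 exon bases of Grm6.

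Pcp2, a modulator of the G protein subunit Gαo that is abundant in rod bipolar and Purkinje cells, lies on the minus strand of chromosome 8 at 3623371 to 3625545. Its FPKM was 4.94 in pHes1_ENCs at P1 and 15.5 at P4. In pHes1_EPCs it was listed at 6.28e-08 at P1, in effect 0, with an upper bound of 0.638, and at 3.57 at P4. The order of the 4 libraries was therefore that of Lhx4. On the log2 scale the fractions differed by -2.57 at P1, and by -1.85 at P4 with a ratio of pHes1_ENCs to pHes1_EPCs of 4.35 (range 2.46 to 9.05). Of the 1828 exon bases of Pcp2, 857 are shared with 2900053A13Rik on the opposite strand. That gene had FPKM of 5.53 and 6.06 in pHes1_ENCs of P1 and P4, and 5.85 and 9.69 in pHes1_EPCs, an order unlike that of Pcp2.

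Gng13, the G protein γ subunit of ON bipolar cells, lies on the plus strand of chromosome 17 at 25854117 to 25856047. In pHes1_ENCs, Gng13 stood at an FPKM of 3.45 on P1 and 5.41 on P4, against 0.906 and 2.39 in pHes1_EPCs. The log2 differences were -1.22 and -0.92, with ratios of pHes1_ENCs to pHes1_EPCs of 3.81 (range 1.15 to 27.7) and 2.27 (0.969 to 6.80). The intervals of the fractions overlapped at P4, which does not show that the levels were equal, and the difference was not tested. The transcript is short, and the interval in P1 pHes1_EPCs has the width of a count of about 5.98 reads. Gng13 also shares 399 of 773 exon bases with Chtf18 on the opposite strand, a replication factor whose FPKM was 3.34 (P1) and 2.45 (P4) in pHes1_ENCs and 16.2 (P1) and 4.39 (P4) in pHes1_EPCs.

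Trpm1, the transduction channel of ON bipolar cells, was the only member more than 2-fold higher in pHes1_EPCs. It lies on the plus strand of chromosome 7 at 71298721 to 71414645. Trpm1 had an FPKM of 0.0267 (P1) and 0.0143 (P4) in pHes1_ENCs, compared with 0.201 (P1) and 1.85 (P4) in pHes1_EPCs. Trpm1 was thus close to 0 in both pHes1_ENC libraries, whereas Grm6, Pcp2 and Gng13 had their highest level in P4 pHes1_ENCs. At P4 the level in pHes1_EPCs was 129 times that in pHes1_ENCs, with a range that begins at 27.0 and has no upper end because the lower bound in pHes1_ENCs is 0. The level there has the interval width of about 0.463 reads. The log2 differences were 0.23 at P1 and 1.49 at P4.

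Trpm1 was first described in melanocytes and is also expressed in pigment cells of the eye, so 10 pigment cell genes were set beside it after its values had been seen. Summed over these genes, the FPKM of pHes1_ENCs was 5.15 (P1) and 7.30 (P4), against 3.82 (P1) and 62.9 (P4) for pHes1_EPCs. At P4 all 10 were higher in pHes1_EPCs, beside 45.2% of all genes, or 59.1% of those reaching FPKM 1 in either library. By more than 2-fold 4 of them were higher, beside 9.85% of all genes, or 17.4% of those reaching FPKM 1 in either library. At P1, 6 were higher and 3 lower in pHes1_EPCs. The 3 lower were Tyrp1, Dct and Mitf, with log2 differences of -0.94, -0.88 and -0.60. Pmel, which encodes the fibril protein of melanosomes, was at 0.737 FPKM in P4 pHes1_ENCs and 36.5 in P4 pHes1_EPCs. For Mlana, a melanosome protein, the values were 0 and 2.08, and for Tyr, the tyrosinase of melanin synthesis, 0.0491 and 1.34. Rpe65, which defines mature pigment epithelium, was at 0.422 in P4 pHes1_EPCs and at most 0.0239 elsewhere. The part of pigment cells in the Trpm1 values was not tested.

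**Figure D2:**
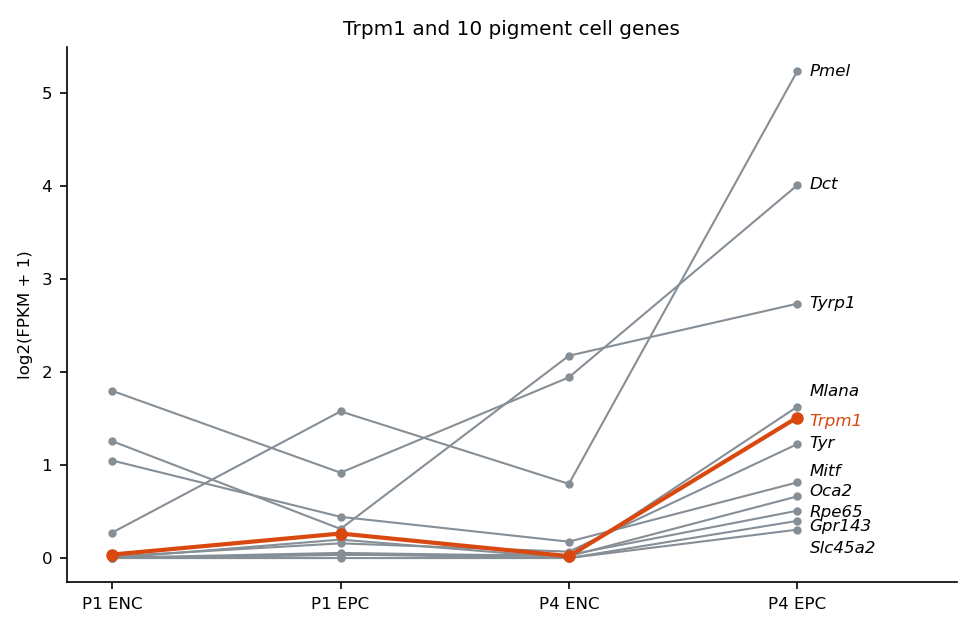
log2(FPKM + 1) of Trpm1 (orange) and of the 10 pigment cell genes (grey) in the 4 libraries, 1 point for each library, joined only to follow a gene. Trpm1 and all 10 genes are higher in P4 pHes1_EPCs than in P4 pHes1_ENCs, where Trpm1 lies at 0.02.

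Prkca encodes protein kinase C alpha, the usual marker of mature rod bipolar cells, and its levels in the fractions were close. It lies on the minus strand of chromosome 11 at 107794701 to 108205202. At P1, pHes1_ENCs contained Prkca at an FPKM of 2.69 and pHes1_EPCs at 4.75, while the P4 levels were 3.94 for pHes1_ENCs and 3.68 for pHes1_EPCs. At P1 it was therefore higher in pHes1_EPCs, with a ratio of pHes1_ENCs to pHes1_EPCs of 0.567 (range 0.480 to 0.667), while at P4 the intervals overlapped, with a ratio of 1.07 (0.914 to 1.25). The corresponding log2 differences were 0.64 and -0.08. No other member was as close between the fractions at P4.

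Cabp5 and Scgn encode calcium-binding proteins of bipolar subtypes, and both were lower in pHes1_EPCs in the values. Cabp5 lies on the plus strand of chromosome 7 at 13983504 to 13994227. In pHes1_ENCs, Cabp5 stood at an FPKM of 2.52 on P1 and 4.69 on P4, against 0.449 and 1.92 in pHes1_EPCs. For the pHes1_ENCs to pHes1_EPCs ratio, P1 gave 5.63 (range 2.89 to 11.5) and P4 gave 2.44 (1.52 to 3.86). The log2 differences were -1.28 and -0.96, the latter just inside the 2-fold limit. Cabp5 was above an FPKM of 1 in pHes1_ENCs at P1 already, whereas Scgn was not.

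Scgn, secretagogin, marks cone bipolar cells and lies on the minus strand of chromosome 13 at 24045326 to 24083083. Scgn had an FPKM of 0.181 (P1) and 1.66 (P4) in pHes1_ENCs, compared with 0.0631 (P1) and 0.796 (P4) in pHes1_EPCs. The log2 differences were -0.15 and -0.56. The intervals of the fractions overlapped at both ages, with a ratio of pHes1_ENCs to pHes1_EPCs of 2.08 (range 0.995 to 4.68) at P4. Such overlap is not a test and does not show that the levels were equal.

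Between the fractions, 5 of the 10 members passed 2-fold at P1 with less in pHes1_EPCs, namely Lhx4, Prdm8, Pcp2, Cabp5 and Gng13, and 0 were higher. Among all genes 6.79% were lower and 6.1% higher at this age, and among those that reached FPKM 1 in either library 11.8% and 10.6%. At P4, 3 members, Lhx4, Prdm8 and Pcp2, were lower, beside 5.42% of all genes, and Trpm1 was higher, beside 9.85%. With that FPKM minimum the shares were 9.56% and 17.4%. The 3 that were lower at P4 were also lower at P1, a pattern found for 3.24% of all genes. The median difference of the members was -0.69 at P1 and -0.74 at P4, whereas over all genes it was 0 at both ages. With the FPKM minimum the medians over genes were 0.03 and 0.17. In sign alone, 7 members were below 0 at P1 and 9 at P4, beside 40.6% and 34.9% of all genes, or 48% and 40.9% with the FPKM minimum. The intervals lay apart with the lower level in pHes1_EPCs for 5 members at P1, beside 21.8% of all genes, and for 6 at P4, beside 18.6%. They lay apart in the opposite direction for 2 members at P1, Trpm1 and Prkca, beside 22.1%, and for Trpm1 at P4, beside 28.3%.
The 4 members within 2-fold at both ages were Vsx1, Grm6, Prkca and Scgn. For Vsx1, Grm6 and Scgn this rests on the added 1: without it, the level in P4 pHes1_ENCs exceeded 2 times that in pHes1_EPCs for 8 members, and a pseudocount of 0.1 gave 7. The P4 libraries also differ in overall level: over genes reaching FPKM 1 in any library the median difference was 0.15, and of all calls at P4 64.5% were higher in pHes1_EPCs. Median-of-ratios scaling moved these to -0.02 and 53.1%, and 5 members were then lower, as Cabp5 and Gng13 passed the limit.

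**Figure D3:**
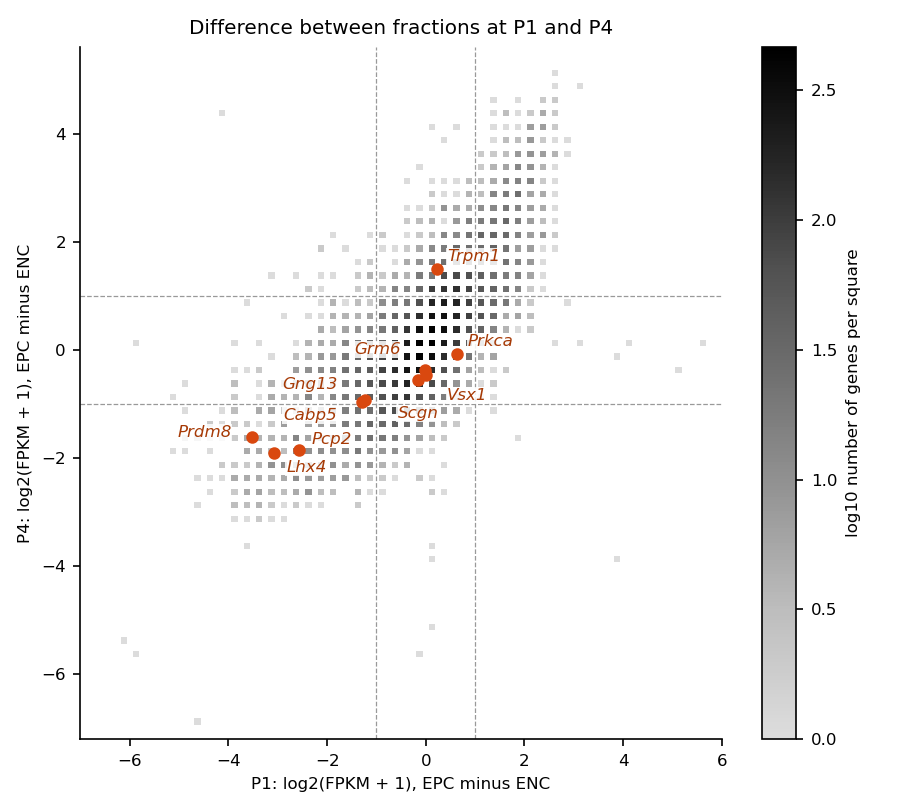
Difference in log2(FPKM + 1) between pHes1_EPCs and pHes1_ENCs at P1 (x axis) and at P4 (y axis) for the 10 members (orange) and for all genes reaching FPKM 1 in some library (squares, darker with more genes). Dashed lines mark a 2-fold difference, and Lhx4, Prdm8 and Pcp2 lie below it at both ages.

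From P1 to P4 the level was higher at the later age in both fractions for 7 of the 10 members, beside 27.9% of all genes. That share includes genes at or near 0. Taken by fraction, 8 members were higher at P4 in pHes1_ENCs and 9 in pHes1_EPCs, beside 37.9% and 48.6% of all genes. Among genes reaching FPKM 1 in either library these shares were 50.4% and 63.7%. These comparisons use the same 4 libraries as those between the fractions, and their values are therefore not independent of them. In pHes1_ENCs, 2 members were higher at P4 by more than 2-fold, Pcp2 and Scgn, beside 2.77% of all genes, with log2 differences of 1.48 and 1.17. In pHes1_EPCs, 5 members were higher by more than 2-fold, beside 4.17% of all genes. For genes reaching FPKM 1 in either library these shares were 4.88% and 7.43%. By the same limit 0 members were lower at P4, beside 5.94% of all genes in pHes1_ENCs and 2.57% in pHes1_EPCs, or 10.5% and 4.57% with the FPKM minimum. The members higher in pHes1_EPCs were Pcp2, Lhx4, Prdm8, Trpm1 and Cabp5, with differences of 2.19, 1.59, 1.33, 1.25 and 1.01. The median change of the members was 0.59 in pHes1_ENCs and 0.92 in pHes1_EPCs, beside 0 for all genes. With the FPKM minimum the medians over genes were 0.004 and 0.19. Intervals lay apart with the higher level at P4 for 7 members in pHes1_ENCs and 8 in pHes1_EPCs, beside 16.9% and 27% of all genes. In the opposite direction they did so for Prdm8 in pHes1_ENCs and Prkca in pHes1_EPCs, beside 21.1% and 14.8%.
Of all calls, 61.9% were higher at P4 in pHes1_EPCs and 31.8% in pHes1_ENCs, beside 44.1% and 32.6% after median-of-ratios scaling, which took Cabp5 inside the limit in pHes1_EPCs. Under quantile normalization the share in pHes1_ENCs was 42.8%. Lhx4 at P4 was 1.37 times its P1 level in pHes1_ENCs (range 1.13 to 1.69) and 5.32 times in pHes1_EPCs (3.14 to 9.34). Prdm8 was 0.660 times its P1 level (0.589 to 0.741) in pHes1_ENCs and 3.27 times (2.41 to 4.40) in pHes1_EPCs. For Cabp5 the ratios were 1.86 (1.21 to 2.87) and 4.29 (2.15 to 9.17). In FPKM, however, the gain was larger in pHes1_ENCs for Lhx4 (5.54 against 3.79), Cabp5 (2.17 against 1.48) and Pcp2 (10.6 against 3.57). Prkca went from 2.69 to 3.94 in pHes1_ENCs and from 4.75 to 3.68 in pHes1_EPCs. Scgn at P4 was 9.18 times its P1 level in pHes1_ENCs (range 3.60 to 42.1).

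**Figure D4:**
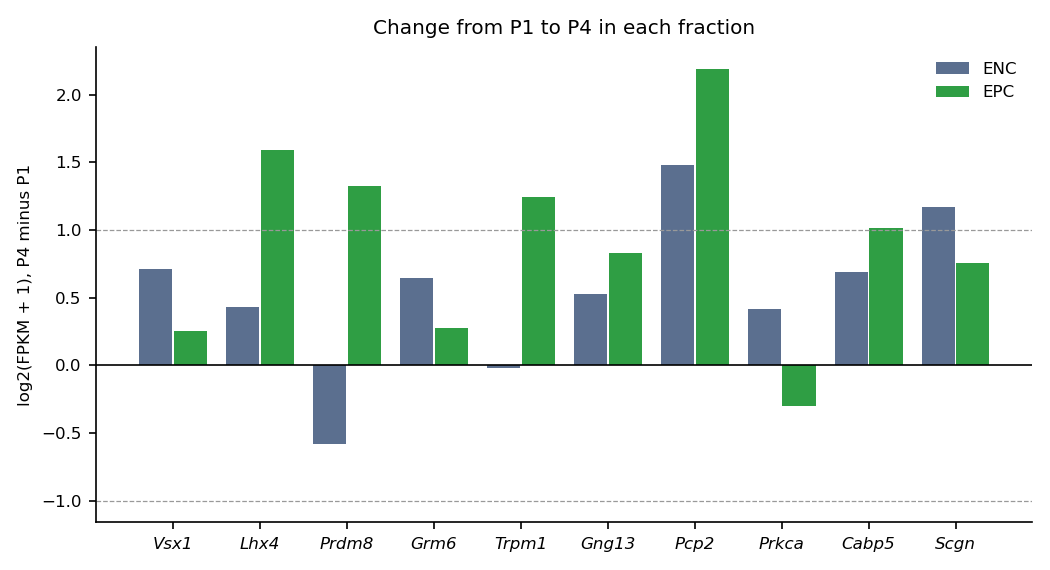
Change in log2(FPKM + 1) from P1 to P4 for each member, with bars from 0 for pHes1_ENCs (grey-blue) and pHes1_EPCs (green) and dashed lines at a 2-fold change. Pcp2 has the tallest bar in both fractions, 1.48 and 2.19, and Prdm8, Prkca and Trpm1 have opposite signs in the fractions, Trpm1 with only -0.02 in pHes1_ENCs.

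By level, the order of the members in P4 pHes1_ENCs was Prdm8, Lhx4, Pcp2, Gng13, Cabp5, Prkca, Scgn, Vsx1, Grm6 and Trpm1. The intervals of Prdm8 and Lhx4 overlap, as do those of Lhx4 and Pcp2, those of Gng13, Cabp5 and Prkca in the middle and those of Vsx1 and Grm6 near the end. Only Prdm8, Lhx4 and Pcp2 reached an FPKM of 10 in any library, and 8 members reached 1. Of all 10 members, 4 were below 1 in P1 pHes1_ENCs, 8 in P1 pHes1_EPCs, and 3 in each fraction at P4. Grm6 and Vsx1 were thus among the lowest members, and Prdm8 and Lhx4 were the highest in P1 and P4 pHes1_ENCs. Pcp2 came next in these libraries, at 4.94 (P1) and 15.5 (P4).

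Other transcription factors of bipolar cells did not all have the same direction. Of 10 on the list, P1 pHes1_EPCs had 6 past 2-fold lower and 2 higher, beside 6.79% and 6.1% of all genes. P4 pHes1_EPCs had 4 lower and 2 higher, beside 5.42% and 9.85%. In sign, 8 were below 0 at P1 and 7 at P4, beside 40.6% and 34.9% of all genes, or 48% and 40.9% with the FPKM minimum. Otx2, which is needed for photoreceptor and bipolar fates, was at an FPKM of 508.8 (P1) and 835.2 (P4) in pHes1_ENCs, against 41.8 and 292.1 in pHes1_EPCs. Neurod4, a bHLH factor, went from 346.9 to 437.3 in pHes1_ENCs and from 10.4 to 113.0 in pHes1_EPCs. Both were thus in the order of Lhx4. Prdm1 also had this order, with log2 differences of -3.53 and -2.41, and so did Lhx3, with -1.37 and -1.05. Prdm1 represses bipolar genes in photoreceptors, and the counts of lower genes at both ages include it.
Irx5 and Irx6, Iroquois factors of cone bipolar cells, were the 2 higher in pHes1_EPCs, and their P1 differences were 2.22 and 2.31 and those at P4 were 4.04 and 2.93. Bhlhe22 and Isl1 were lower at P1, with -1.95 and -1.17, and within 2-fold at P4, with 0.10 and -0.38. Bhlhe23, a factor of rod bipolar cells, was near 0 at P1 and reached 1.36 FPKM in pHes1_ENCs of P4, against 0.714 in pHes1_EPCs. Sebox was at 0.235 and 0 at P1 and at 1.38 and 0.569 at P4. Of the pair, Bhlhe23 thus had P1 levels as close to 0 as those of Vsx1 and Grm6, whereas Sebox was already above them in pHes1_ENCs.

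Of 9 partners of the ON cascade, 4 were more than 2-fold lower and 0 higher in pHes1_EPCs at each age. Among all genes 6.79% were lower and 6.1% higher at P1, and 5.42% and 9.85% at P4. The count of 0 rests on the added 1, since the ratio without it gave 2 higher at each age, Rgs11 and Gpr179. Gnb3, the β subunit of ON bipolar cells and cones, stood at 158.7 and 324.1 FPKM in pHes1_ENCs, against 9.86 and 64.6 in pHes1_EPCs. Gnao1, encoding Gαo, was at 48.5 and 33.8 in pHes1_ENCs and at 15.4 and 15.5 in pHes1_EPCs. Rgs9bp, an anchor of RGS proteins, had log2 differences of -1.06 and -2.28, Gnb5 of -0.96 and -1.43, and Rgs7 of -1.02 and -0.39. Gpr179, the orphan receptor that holds this complex at the dendrite, was higher in pHes1_EPCs in its FPKM, with 4.53 against 1.98 at P1 and 2.43 against 0.918 at P4. Rgs11, an RGS protein of the same complex that was named after its values had been seen, was likewise at 2.47 against 1.19 at P1 and at 4.72 against 2.24 at P4. The order of both was therefore not that of Grm6.

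Of 13 markers of bipolar subtypes, 8 reached FPKM 1 in some library. Past 2-fold, 3 were lower and 0 higher in pHes1_EPCs at P1, beside 6.79% and 6.1% of all genes. At P4, 2 were lower and 2 higher, beside 5.42% and 9.85%. Grik1, a kainate receptor of OFF bipolar cells, went from 0.648 to 3.43 FPKM in pHes1_ENCs and from 0.102 to 1.17 in pHes1_EPCs. Cabp2, a calcium-binding protein, was at 1.70 and 0.421 at P4. Grik1 and Fam40b were the 2 lower at P4, by -1.03 and -1.23. Tacr3, Pcdh17 and Nxph1 were lower at P1, by -1.18, -2.20 and -1.64, but not at P4, when their differences were -0.71, -0.13 and 0.07. Prkar2b and Pcdh10 were higher in pHes1_EPCs at P4, with 1.97 and 1.20 on the log2 scale. Past 2-fold, the subtype markers thus had no common direction at P4. In sign, 10 of the 13 were below 0 at that age, beside 34.9% of all genes, or 40.9% of those reaching FPKM 1 in either library. However, 7 of the 13 were below FPKM 1 in P4 pHes1_ENCs and 10 in P4 pHes1_EPCs, where a sign means little.

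**Figure D5:**
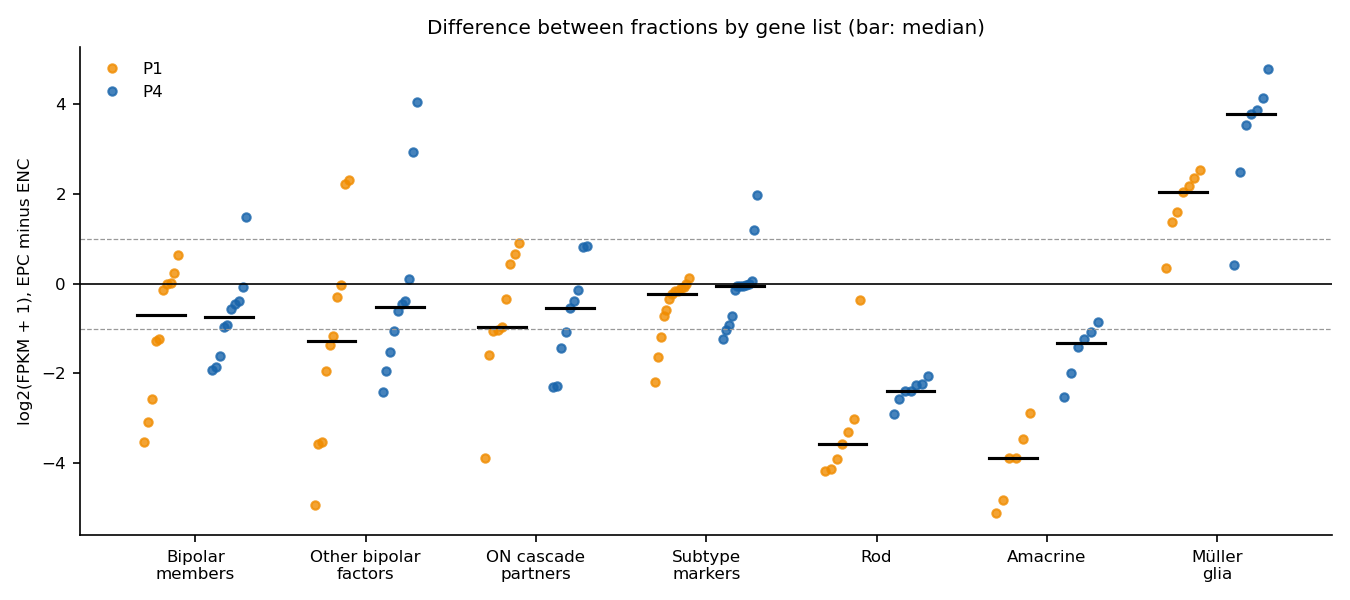
Difference in log2(FPKM + 1) between pHes1_EPCs and pHes1_ENCs at P1 (orange) and P4 (blue), with 1 point for each gene of a list, bars at the median and dashed lines at 2-fold. The bipolar members have medians of -0.69 and -0.74, between those of the rod list, -3.57 and -2.39, and the Müller glia list, 2.05 and 3.77.

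The other cell types of the retina were followed with marker lists. For comparison, 6.79% of all genes were past 2-fold lower in pHes1_EPCs and 6.1% higher at P1. The shares at P4 were 5.42% and 9.85%. Of the 7 rod genes, 6 passed 2-fold with less in pHes1_EPCs at P1, and all 7 did at P4, with Nrl and Crx at log2 differences of -4.12 and -4.17 at P1. Summed over the list, the ratio of rod FPKM between pHes1_ENCs and pHes1_EPCs was 15.6 at P1, but 5.24 at P4. Summed over the 10 bipolar members, this ratio was 6.70 and 2.90. Without Lhx4 and Prdm8, which make up most of that sum, the ratio of the other 8 members was 2.17 at P1 and 2.22 at P4. Of the 6.37 FPKM of these 8 in P1 pHes1_EPCs, Prkca alone gave 4.75, and its ratio was 0.567 at P1 and 1.07 at P4. The ratios of Cabp5 (5.63 and 2.44) and Gng13 (3.81 and 2.27) were instead lower at P4, so the similar sums hide changes in both directions. The part of rods or other pHes1_ENCs in the bipolar values of pHes1_EPCs was not tested. The 6 amacrine genes, among them Tcfap2b and Gad1, all passed 2-fold at P1 with less in pHes1_EPCs. Their summed FPKM in pHes1_ENCs was 249 at P1 and 81.4 at P4. Slc6a9 alone went from 19.1 to 62.6, while the other 5 together went from 230.4 to 18.8. The part of amacrine cells in the Prdm8 values was not tested. Of the 7 Müller glia genes, 6 had at each age a level past 2-fold above pHes1_ENCs, with Glul at 1.38 and 2.47. All 6 progenitor and all 5 proliferation genes passed 2-fold with more in pHes1_EPCs, at P1 as at P4. Cone genes were lower in 3 of 5 cases at P1 and 2 at P4, horizontal cell genes in 2 and 1 of 4, and ganglion cell genes in 0 of 5 at both ages. The 3 haemoglobin genes summed to 183.7 and 499.7 in pHes1_ENCs and to at most 6.47 in pHes1_EPCs, so that the fractions also differed in blood cell RNA.

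The genes with the most similar pattern were found by the Euclidean distance over the 4 libraries, after centring log2(FPKM + 1) of each gene. The candidates were the 8404 genes with an FPKM of 10 or more in some library, and Vsx1 and Grm6, below 1 throughout, were left out. For Lhx4 these were Nrxn3, Pik3r1 and Gdap1l1, at distances of 0.15, 0.16 and 0.17, and 49 of the candidates lay within 0.5. Nrxn3, a synaptic adhesion protein, went from 13.7 to 18.2 FPKM in pHes1_ENCs and from 0.537 to 4.28 in pHes1_EPCs. For Prdm8 they were Klhl35, Meis2 and Darc, at 0.19, 0.20 and 0.20, with 16 genes within 0.5. For Pcp2 they were Slc25a33, 2010001M09Rik and Stx3, at 0.11, 0.12 and 0.21, with 24 genes within 0.5. Stx3 encodes the syntaxin of ribbon synapses, and Slc25a33, a mitochondrial carrier, went from 26.1 to 69.5 FPKM in pHes1_ENCs and from 3.35 to 20.5 in pHes1_EPCs. The patterns of Cabp5, Gng13, Scgn, Trpm1 and Prkca were shared by 163 to 1186 genes within this distance, so that their nearest genes carry little information. With 4 points for each gene such likeness is a description.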

How the data were processed

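RNA of pHes1_EPCs and pHes1_ENCs sorted at P1 and P4 was sequenced by the authors as single-end reads of 36 bases, without marking the strand as far as the protocol says. The authors aligned the reads to NCBI37/mm9 with TopHat 2.0.8b, with a maximum of 50 hits per read. They deposited gene FPKM from Cufflinks 2.1.1 with 95% intervals, as 1 table for each of the 4 libraries. These FPKM were used as they stand. Small RNAs (787 of 23021 lines) were left out and each of 235 repeated symbols was represented by its most abundant line, leaving 21828 genes. All 10 members had the Cufflinks status OK in every library. The depth inferred from the interval widths was 14200000 to 15300000 reads, and relative to P1 pHes1_ENCs it was 0.927 to 1. Between 9.06% and 10.4% of lines had an FPKM beyond the bounds of their own interval.

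Differences of log2(FPKM + 1) past 1 were counted, with Python 3.11.15, numpy 2.4.6 and pandas 2.3.3, and the procedure was tested on simulated data. The members, the lists and the threshold were chosen with earlier results of these data known, and the pigment cell list was added after the Trpm1 values had been seen. Genes beyond the members are named if they are past 2-fold at an age, if they have 1 of the 4 highest or 2 lowest levels of a list among its genes that reached FPKM 1, if they are among the first 3 of a marker list, or if they are 1 of the 3 nearest patterns. Rpe65, Lrit3, Rgs11 and the overlapping partners of Pcp2 and Gng13 were named after their values had been seen. Gene positions are those of the deposited gene lines. Strands, transcripts and overlapping genes are from the GENCODE vM1 annotation of NCBI37/mm9, in which the ends of some members, such as Cabp5, differ. For 9 of the 10 members the upstream window was identical to one listed for RefSeq in GRCm38.p6. For 2 further genes of the transcription factor list, values are not reported here. Sums without Lhx4 and Prdm8 and without Slc6a9 were added after seeing the data. The alternatives were other pseudocounts, a minimum FPKM, other scalings, other handling of small RNAs, status and repeated symbols, and intervals that do not overlap.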

Additional observations from a re-analysis of the deposited data

Results flagged for a closer look

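For 8 of the 42 bipolar genes checked, the difference between pHes1_EPCs and pHes1_ENCs had opposite signs at P1 and P4. In 4 of them the difference was past 0.05 on the log2 scale at both ages and the FPKM was at least 1 in either fraction at each age, and only these are described. With 1 library in each group this change was not tested. Prkca went from 0.64 to -0.08 on the log2 scale, a change of -0.72, and the intervals of the fractions overlapped at P4. Bhlhe22, a bHLH factor of bipolar and amacrine subtypes, went from -1.95 to 0.10, a change of 2.05. In FPKM it went from 27.2 to 11.9 in pHes1_ENCs and from 6.30 to 12.8 in pHes1_EPCs. Pcdh10, a protocadherin, went from -0.17 to 1.20, a change of 1.37. Lrit3, a synaptic protein of the ON cascade, went from 0.43 to -0.14, a change of -0.57.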

How the results depend on the processing

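At P1, the count of members past 2-fold with less in pHes1_EPCs stayed within 1.5 times of 5 under all 10 alternatives. At P4 the count of 3 became 7 with a pseudocount of 0.1 and 8 for the ratio without a pseudocount. It became 5 with FPKM rescaled to the same total, with median-of-ratios scaling and with quantile normalization. The count of members higher in pHes1_EPCs at P1, 0, became 1 with a pseudocount of 0.1 and for the ratio, in both cases Trpm1, while at P4 it was 1 under every alternative. Members higher at P4 than at P1 numbered 4 instead of 2 in pHes1_ENCs with a pseudocount of 0.1. In pHes1_EPCs they numbered 9 instead of 5 with that pseudocount and 8 for the ratio. A smaller pseudocount acts by construction on genes with an FPKM near or below 1, such as Vsx1, Grm6 and Scgn. Of the 384 values of single members under the alternatives, 336 stayed within their counting range, 48 did not, and 0 changed sign after being past 2-fold. Many of these values could not move. The FPKM minimum, kept small RNAs, status OK, separate intervals and summed lines leave the difference of a member as it is. Another pseudocount cannot change a sign either, so these totals do not measure robustness. Among all genes, calls numbered 1483 lower and 1331 higher in pHes1_EPCs at P1, but 2470 and 2057 with a pseudocount of 0.1 and 2981 and 2529 for the ratio. At P4, 1184 lower genes became 1963 and 2491, and 2150 higher ones became 3625 for the ratio. From P1 to P4, 604 higher and 1297 lower genes in pHes1_ENCs became 1009 and 2502 with that pseudocount and 1405 and 3150 for the ratio. In pHes1_EPCs, 911 and 560 became 1713 and 1162, then 2348 and 1602. Rescaling to the same total gave 501 and 1049 there, and quantile normalization gave 593 higher. At P4, 64.5% of calls were higher in pHes1_EPCs, but 48.0% after rescaling to the same total and 49.8% after quantile normalization, and for P4 against P1 in pHes1_EPCs 61.9% became 32.3% and 44.3%. No paired analysis was possible because each group has 1 library and the labels give no replicate numbers. For partners of the ON cascade, 0 higher in pHes1_EPCs became 1 at P1 and 2 at P4 with a pseudocount of 0.1, 2 at each age for the ratio, and 1 at P1 under quantile normalization. Counting error limits Gng13 and Scgn, levels near 0 leave the Trpm1 ratio without an upper end, and no P1 ratio is given for Vsx1, Grm6 and Pcp2.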
